A study of Mus musculus with 764 samples.

Results

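The nuclear genes of oxidative phosphorylation were described in IL-10-producing CD4+ T cells, sequenced cell by cell, from mouse spleen and mouse small intestine. All rows of the count tables whose name begins with Nduf, Uqcr, Atp5 or Cox4 to Cox8, together with Sdha, Sdhb, Sdhc and Sdhd, were taken, which gave 92 of 23997 gene rows. By their known roles 43 of them belong to complex I, 4 to complex II, 8 to complex III, 20 to complex IV and 17 to the ATP synthase. Subunits, assembly factors and a few related proteins are all included, because the choice was made by name. The rule used no measured value.

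Every cell came from a mouse treated with an antibody against CD3 (anti-CD3), and was sorted as an IL-10+ CD4+ T cell through an eGFP reporter of IL-10 in IL-10eGFP Foxp3mRFP double reporter mice. There was no untreated group. No label gave the animal a cell came from, so a tissue counts as 1 sample, no test was made and no difference has a replicate check. Of 764 cells, 190 came from the small intestine and the others from the spleen, and each was read with SMART-seq2, which copies whole transcripts and adds no molecular identifiers. Spleen cells filled well columns 1 to 24 of plate p1 and 1 to 12 of plate p2, and small intestine cells columns 13 to 24 of p2, so values are given for 3 spleen well sets, and on p2 tissue and plate position cannot be told apart. After removal of cells with few reads and of cells called S or G2M, 400 spleen cells and all but 53 of the small intestine cells were kept. The 3 spleen well sets (columns 1 to 12 of p1, columns 13 to 24 of p1, and p2, always given in this order) held 33.2%, 36.2% and 30.5% of the kept spleen cells. Kept cells had 162801 to 622997 reads in the spleen and 171248 to 580400 in the small intestine, and the median cell showed 3263.5 to 3331 genes in the spleen sets and 3105 in the small intestine.

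The spleen sets were not alike in their makeup. Foxp3, which defines regulatory T cells, had a read in 63.9%, 17.9% and 6.56% of kept cells of the spleen sets and in 6.57% of those of the small intestine. Cd3e, a chain of the T cell receptor complex, averaged 1261 to 1316 CPM (the reads of a gene after every cell is scaled to the same total) in the spleen sets and 1370 CPM in the small intestine, with a read in 100% of kept cells of both tissues. It was the one of 6 CD4 T cell markers above all spleen sets, while 4 lay below all of them, and the summed level of the 6 was 8654 to 9428 CPM in the spleen sets and 7363 CPM in the small intestine. Cd28, a costimulatory receptor, was at 842 to 1003 CPM against 282.02 CPM, and Cd3d, another chain of the receptor complex, at 1881 to 2074 CPM against 1213 CPM, and both were at least 1.5-fold lower. Cd4 itself was at 1532 to 1589 CPM against 1500.3 CPM. Of the other cell types a sort could hold, 12 epithelial markers summed to 25.3 to 65.7 CPM in the spleen sets. In the small intestine the sum was 97.2 CPM. Fabp1, Fabp2 and Muc2 were at 0 in all spleen sets and at 0.594, 0.532 and 2.06 CPM in the small intestine. Reg3b and Reg3g were the highest of the 12 in the small intestine, at 32.9 and 30.9 CPM, read in 8.76% and 10.9% of cells. In spleen p2 they were at 3.85 and 8.25 CPM, and in the p1 sets at 0. Epcam, the one epithelial marker with a mean of at least 10 CPM, went the other way within that sum, at 58.1, 21.7 and 8.47 CPM in the spleen sets and 9 CPM in the small intestine. Cd79b, a signalling chain of the B cell receptor, was at 3.62, 8.15 and 11.7 CPM in the spleen sets and 19.7 CPM in the small intestine (log2 ratio 1.24), with 3.75% of spleen cells and 8.76% of small intestine cells showing a read. For 7 myeloid markers the summed level was 38.1 to 39.8 CPM against 105.6 CPM, of which Cd68 made 104.9 CPM, with Lyz2 at 0 in the small intestine and Csf3r at 0 in every set. For 5 erythroid markers it was at most 1.25 CPM in every set, with the haemoglobin genes at 0. The part of these cells or markers in the values below was not tested.

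Oxidative phosphorylation passes electrons from NADH through complex I, or from succinate through complex II, to complex III and on to complex IV, where oxygen is reduced. Complexes I, III and IV pump protons out of the mitochondrial matrix, and the ATP synthase makes ATP from their return. Most subunits are encoded in the nucleus and imported, and the others are encoded in mitochondrial DNA, whose genes were not analysed here. In CD4+ T cells the pathway is used at rest and rises in activity upon activation, alongside glycolysis.

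The promoters of many of these genes are known to carry sites for nuclear respiratory factor 1 (NRF1) and for ETS family factors such as GABP, which are taught as the shared regulators of the respiratory chain. In the RefSeq promoter windows (GRCm38.p6, from 250 bases before to 50 bases after a start site) 76 of the 92 members were found by symbol. The NRF1 core GCATGCGC, searched on both strands, was in the windows of 12 of the 76 members (15.8%) against 3.05% of 27025 genes. The ETS core CCGGAAG was in 17 of the 76 (22.4%) against 9.93% of genes, and both cores were in 5 (6.58%) against 0.618%. The background in each case is all genes with a window, expressed in these cells or not, and was not matched for level. The stretches below are shown because together they span 4 of the 5 complexes and both ends of the tissue comparison. Capitals mark every base inside a match to either core on either strand, and all lie before the start site.
Ndufaf4 (chr4:24897930-24898019, plus strand): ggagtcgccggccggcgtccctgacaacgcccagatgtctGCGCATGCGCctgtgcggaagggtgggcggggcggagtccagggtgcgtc
Ndufa6 (chr15:82354327-82354414, minus strand): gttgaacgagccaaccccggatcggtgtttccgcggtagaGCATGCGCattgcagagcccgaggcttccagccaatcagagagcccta
Ndufa11 (chr17:56717662-56717751, plus strand): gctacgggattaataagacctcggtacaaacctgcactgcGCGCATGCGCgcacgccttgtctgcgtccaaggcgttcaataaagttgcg
Sdhb (chr4:140961177-140961264, plus strand): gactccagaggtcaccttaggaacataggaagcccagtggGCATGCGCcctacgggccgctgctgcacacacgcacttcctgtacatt
Cox6a1 (chr5:115349071-115349160, minus strand): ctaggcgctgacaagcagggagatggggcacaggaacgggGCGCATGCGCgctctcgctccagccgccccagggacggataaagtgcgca
Atp5k (chr5:108434400-108434489, minus strand): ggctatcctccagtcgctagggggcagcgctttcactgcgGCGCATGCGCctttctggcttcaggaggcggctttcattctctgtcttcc
Atp5l (chr9:44920935-44920992, minus strand): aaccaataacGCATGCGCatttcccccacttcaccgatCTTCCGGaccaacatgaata
In Ndufaf4, Ndufa11, Cox6a1 and Atp5k the core reads on both strands at once, and the windows of Sdhb, Cox6a1, Atp5k and Atp5l also hold the ETS core, which lies inside the stretch shown for Atp5l alone. A match is a run of letters and not a site shown to be bound. The log2 ratio of mean level, small intestine over spleen, had a median of -0.23 (range -1.13 to 0.13) over the 10 members with an NRF1 core that reached the minimum level defined below, and -0.34 (range -0.92 to 0.54) over the 53 without one.

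The module score of a cell, the mean of log2(CPM + 1) over the 92 members, was lower in small intestine than in spleen cells, and most of the 2 distributions overlapped. It averaged 4.32 ± 0.76, 4.41 ± 0.73 and 4.40 ± 0.86 (SD over cells) in the spleen sets and 3.98 ± 0.71 in the small intestine. The lowest, median and highest cells were at 1.86, 4.37 and 6.25 over all 400 spleen cells and at 2.54, 3.92 and 6.01 in the small intestine. The difference of -0.40 was smaller than the pooled SD over cells of 0.75, and 73% of small intestine cells lay below the spleen median. Between spleen sets the largest gap of the mean score was 0.09. The mean of log2(CPM + 1) over all 8391 genes with a mean of at least 10 CPM also differed, by -0.15, from 2.56 to 2.58 in the spleen sets to 2.42 in the small intestine. Over the 2262 genes with at least 100 CPM it differed by -0.17, and over the 46 members at that level by -0.41.

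**Figure D1:**
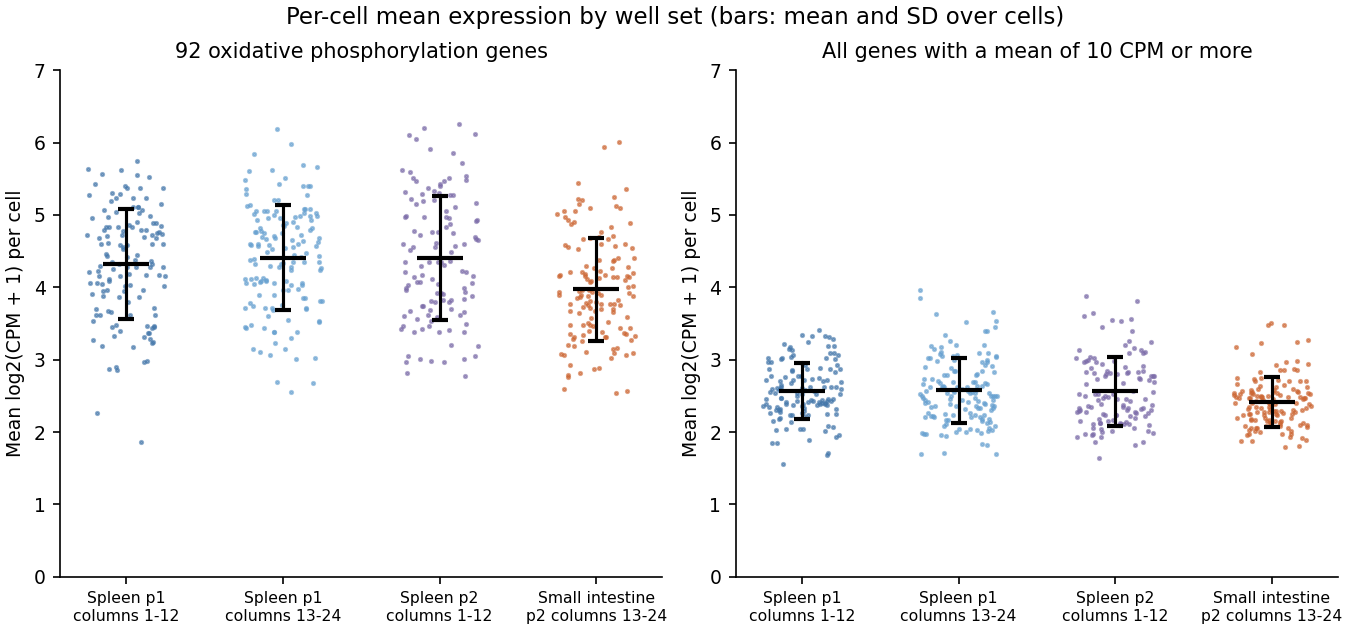
Each point is 1 kept cell, bars give the mean and SD over cells, and the y axis is the mean of log2(CPM + 1) over the 92 members (left) or over all 8391 genes with a mean of 10 CPM or more (right). The small intestine mean of 3.98 lay below the spleen means of 4.32, 4.41 and 4.40, while the clouds of cells overlapped.

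The score followed how many genes a cell showed. Across cells its Spearman correlation with the number of genes with a read was 0.75 to 0.85 in the 4 well sets, and with total reads it was -0.14 to 0.16. Both are descriptions, since the points of a set share plate and preparation and the score itself counts detected genes. A small intestine cell had a read for 54 ± 8.56 of the 92 members (mean and SD over cells) and a spleen cell for 58.9 ± 9.44. After each cell was thinned to 200000 reads, which left out 5 small intestine and 23 spleen cells, these numbers were 53.1 and 57.6 and the score difference was -0.39.

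At an equal number of detected genes the gap narrowed but kept its direction. Among cells with 3000 to 3500 genes, the mean score was 4.16 ± 0.50 (SD, 46 cells) in the small intestine and 4.23, 4.39 and 4.29 in the spleen sets (42, 46 and 22 cells). The difference from all 110 spleen cells of that range was -0.15, where the mean over all genes compared was 2.48 in the small intestine and 2.47 in the spleen. With 2500 to 3000 genes the score was 3.54 in 52 small intestine cells and 3.71 to 3.77 in the spleen sets (3.75 over all spleen cells of that range). With 3500 to 4000 genes it was 4.46 in 20 small intestine cells and 4.67 to 4.91 in the spleen sets (4.78 over all spleen cells of that range). The gap was wider in both of these ranges than with 3000 to 3500 genes. In each of the 3 ranges the small intestine mean was below the mean of every spleen set, and the SD over cells of each well set was larger than the gaps of its own range.

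**Figure D2:**
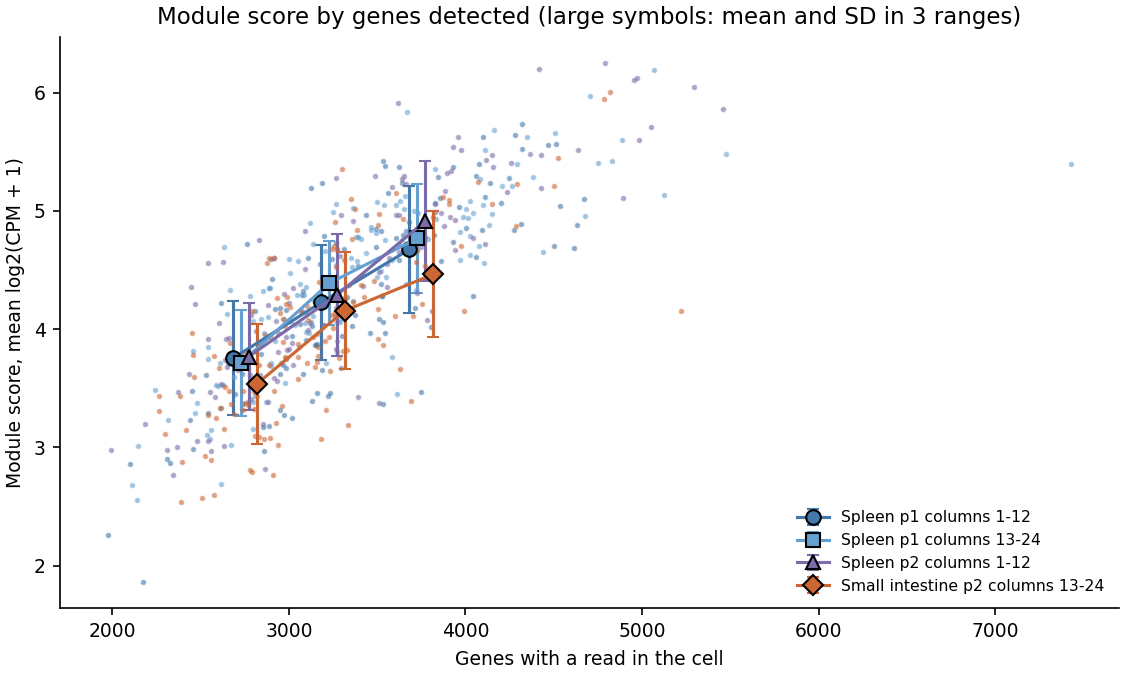
Small points are kept cells, with the number of genes with a read on the x axis and the module score on the y axis; large symbols give mean and SD for 2500 to 3000, 3000 to 3500 and 3500 to 4000 genes, set slightly apart along x so that they can be told apart. The small intestine means of 3.54, 4.16 and 4.46 were the lowest of the 4 well sets in their ranges.

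Mean levels gave another picture than the score. A gene was compared when its mean over the 4 well sets was at least 10 CPM, which held for 75 of the 92 members and 8391 of all genes. The log2 ratio of its mean CPM + 1, small intestine over all spleen cells, had a median of -0.24 over all 92 members, -0.26 over the 75 compared and -0.23 over all genes compared. The members were therefore placed where the typical gene was, and their spread was narrower, with quartiles of -0.49 and -0.03 against -0.73 and 0.22. A member was called lower or higher when it differed at least 1.5-fold from all spleen cells and lay outside all 3 spleen sets. In this comparison 10 of the 75 members were called lower, against 29.6% of all genes compared, and 0 of 75 were called higher, against 12.6%. Regardless of size, the small intestine mean was below all 3 spleen sets in 51 of the 75 members, against 45.6% of genes, and above all 3 in 8, against 23.5%.

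The balance of these calls moved with the scale. With TMM scaling, which sets samples to the level of their typical gene, the median of all genes moved from -0.23 to -0.03 and that of the compared members from -0.26 to -0.05. On that scale 6 of 75 members were called lower, against 21.7% of genes, and Atp5sl, Ndufa1 and Ndufs4 were called higher, 3 of 75 against 18.6%. The 64 genes that were among the 50 most abundant of either tissue took 26.3% of reads in the small intestine and 19% to 19.9% in the spleen sets, and none was a member. The way cells were averaged mattered as well. On means of log2(CPM + 1), which give weight to how many cells show a gene, 34 of 75 members were called lower, against 26.7% of genes, and Ndufa10 and Ndufs4 higher, 2 of 75 against 13.5%. Among the 62 members with at least 50 CPM, 5 were called lower on mean CPM, against 27.5% of genes at that level, and 0 higher, against 10.3%.

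**Figure D3:**
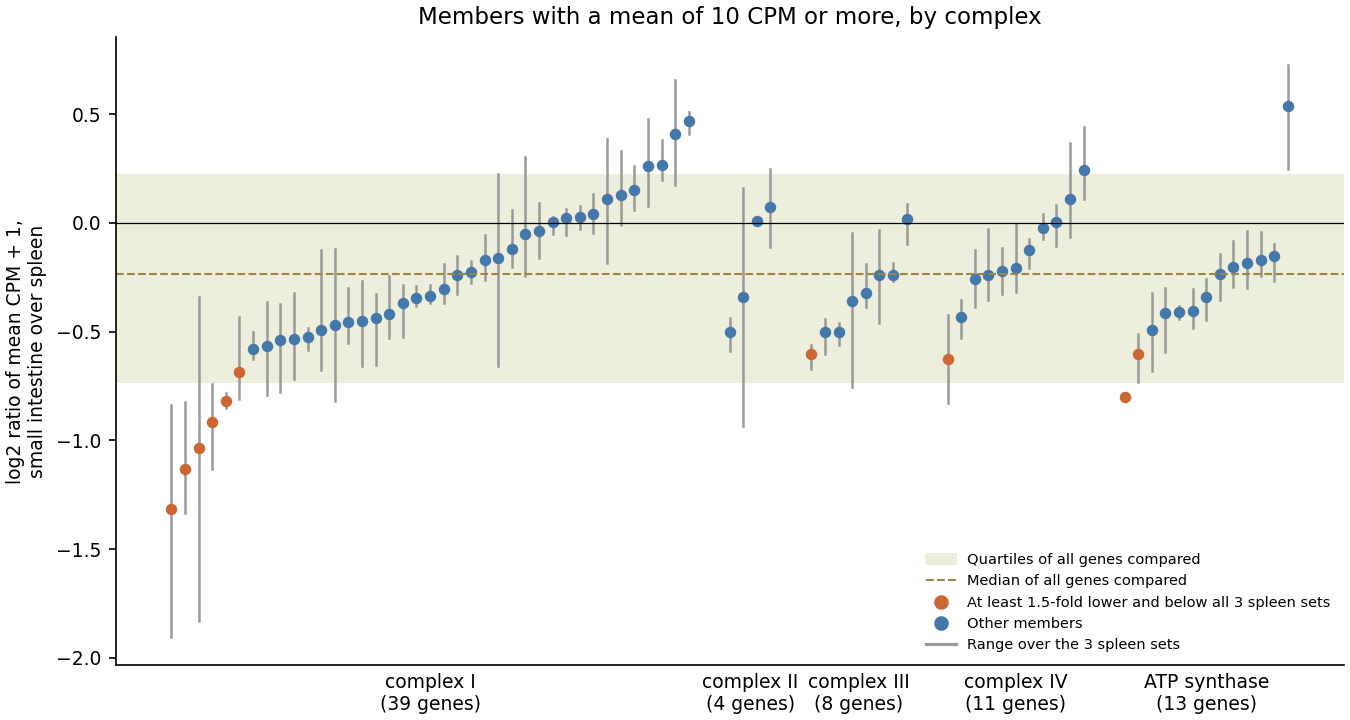
Each point is 1 of the 75 members compared, placed by complex and by its log2 ratio of mean CPM + 1, small intestine over spleen; grey lines join the lowest and highest ratio against the 3 spleen sets, and the band and dashed line are the quartiles and median of all 8391 genes compared. Orange points are the 10 members called lower, of which 6 belong to complex I, and most members fall inside the band.

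Of the groups by complex and role, the head and stalk of the ATP synthase had the highest summed CPM, with no correction for transcript length. Complex I as a whole summed to more in the small intestine, at 3570 CPM. All 9 members of the head and stalk that were compared lay below each spleen set, against 45.6% of all genes compared. Their median log2 ratio was -0.41 (range -0.80 to -0.15), against -0.23 over all genes compared. Atp5d, Atp5f1 and Atp5e were nearer 0 than that all-gene median, at -0.15, -0.18 and -0.20. The summed level of the 9 was 4139, 4241 and 4392 CPM in the spleen sets and 2972 CPM in the small intestine. Atp5b, the catalytic beta subunit and the member with the highest mean CPM, averaged 1351 ± 743, 1384 ± 998 and 1361 ± 1054 CPM in the spleen sets and 784 ± 653 CPM in the small intestine (SD over cells). Its lowest, median and highest cells were at 0, 1212 and 4590 CPM in the spleen and at 0, 636 and 4221 CPM in the small intestine. The 3 spleen means lay within a few percent of each other, and the log2 ratio was -0.80, or -0.57 to -1.08 over the alternatives. Atp5a1, the alpha subunit that alternates with beta in the head, averaged 961, 920 and 1072 CPM in the spleen sets and 645 CPM in the small intestine, with a log2 ratio of -0.60. Atp5c1, the central stalk subunit gamma, averaged 558.5, 582 and 564.05 CPM against 427.9 CPM, with a log2 ratio of -0.41. These 3 genes were among the 5 members with the highest mean CPM, and all had lower means in the small intestine than in any spleen set.

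In the membrane part of the ATP synthase, Atp5g3, one of 3 genes for the rotor subunit c, averaged 284.001, 294.1 and 348.5 CPM in the spleen sets and 230.6 CPM in the small intestine (log2 ratio -0.41). Atp5j2 and Atp5k, small subunits of the membrane part, had log2 ratios of -0.34 and -0.17. Atp5sl, whose product is related by name to the synthase but is known as a complex I assembly factor, was the one compared row named Atp5 above all spleen sets. It averaged 36.1, 33.9 and 47.4 CPM in the spleen sets and 56.6 CPM in the small intestine (log2 ratio 0.54). A read was found in 28.6%, 25.5% and 34.4% of spleen cells by set and in 35.8% of small intestine cells.

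Complex I split by role. Its assembly factors named Ndufaf held the lowest ratios, with a median of -0.76 over the 6 compared. Their summed level was 204.2 to 234.7 CPM in the spleen sets and 138.3 CPM in the small intestine. Atp5sl, the complex I assembly factor grouped by name with the ATP synthase, is not among these 6 and went the other way, at 0.54. Ndufaf4, a factor of early complex I assembly, averaged 62.6 ± 127.2, 43.7 ± 92.5 and 57.7 ± 142.4 CPM in the spleen sets and 24.2 ± 72.9 CPM in the small intestine. A read was found in 31.2% of spleen cells (95% Clopper-Pearson interval 26.7% to 36%) and in 16.8% of small intestine cells (11% to 24.1%). The intervals cover counting error only, and after thinning to 200000 reads the shares were 30.5% and 15.2%. The median cell of every set was at 0 CPM, so this ratio of -1.13 is set by the minority of cells with a read. Ndufaf6 and Ndufaf5 had log2 ratios of -1.31 and -1.03 but few cells showed them, 6.57% and 8.76% in the small intestine against 10.5% and 17.2% in the spleen. Both were also uneven within the spleen: Ndufaf5 averaged 42.5 CPM in columns 1 to 12 of p1 and 14.5 and 15.2 CPM in the other sets. Without its highest small intestine cell the ratio of Ndufaf6 was -1.89. Ndufaf3, which works at the same step as Ndufaf4, did not share the difference, with 36.8, 35.3 and 38 CPM in the spleen sets and 37.3 CPM in the small intestine.

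The 7 core subunits of complex I, which carry the flavin and the iron-sulfur clusters, had a median log2 ratio of -0.37. Of these, 6 lay below all spleen sets, against 45.6% of all genes compared. None of the 7 reached the 1.5-fold limit. The closest was Ndufv1, a subunit of the NADH-oxidising tip, with 91.5, 102.8 and 123.7 CPM in the spleen sets and 71 CPM in the small intestine (log2 ratio -0.56). Ndufs1, the largest core subunit, was the one that did not lie below all sets, with 114.04, 135.9 and 123.3 CPM in the spleen and 121.5 CPM in the small intestine.

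The 26 accessory subunits compared ranged from -0.92 to 0.47 with a median of -0.17, so members of the same complex lay on both sides. Ndufs6, which is needed for one of the last assembly steps, averaged 80.8 ± 94, 88.6 ± 85.4 and 106.3 ± 122.3 CPM in the spleen sets and 48 ± 56.4 CPM in the small intestine. Its lowest, median and highest cells were at 0, 61.5 and 755 CPM in the spleen and at 0, 32.9 and 255.2 CPM in the small intestine, and the log2 ratio was -0.92. Ndufa12, another accessory subunit, was even across the spleen, with 41.7, 40.3 and 42.3 CPM, and at 23 CPM in the small intestine (log2 ratio -0.82). Ndufa12 shares 26.2% of its transcript windows with other genes and is read with the caution given below. Ndufa9, at the joint of the 2 arms of the complex, averaged 141.5, 147.3 and 112.9 CPM in the spleen sets and 83.5 CPM in the small intestine (log2 ratio -0.69), with a read in 49.5% of spleen cells against 35.8% of small intestine cells.

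At the other end, 5 of the 26 accessory subunits compared lay above all 3 spleen sets, against 23.5% of all genes compared. Ndufs4, a subunit of the NADH-oxidising arm, averaged 131.02 ± 166.8, 140.6 ± 200 and 132.3 ± 177.03 CPM in the spleen sets and 187.1 ± 230 CPM in the small intestine, with a log2 ratio of 0.47. Its median cell was at 82.6 CPM in the spleen and 136.5 CPM in the small intestine, and its share of cells with a read was 65.5% (60.6% to 70.2%) and 75.9% (67.9% to 82.8%). Mean, median and share thus pointed the same way for Ndufs4. For Ndufa1, a small membrane subunit, they did not: its mean was 97.3, 120.9 and 86.2 CPM in the spleen sets and 136.3 CPM in the small intestine (log2 ratio 0.41), but its median was 86.7 CPM in the spleen and 64.5 CPM in the small intestine. One small intestine cell at 2769 CPM accounted for part of that mean, which was 116.98 CPM without it, below the 120.9 CPM of p1 columns 13 to 24, and the log2 ratio ran from -0.27 to 0.66 over the alternatives. Ndufb3 and Ndufa3, small membrane subunits, had log2 ratios of 0.26 each, Ndufa10 of 0.15 and Ndufa6 of 0.13. Ndufa6 was within the range of the spleen sets, at 147.7 CPM against 117.2, 148.6 and 138.2 CPM.

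**Figure D4:**
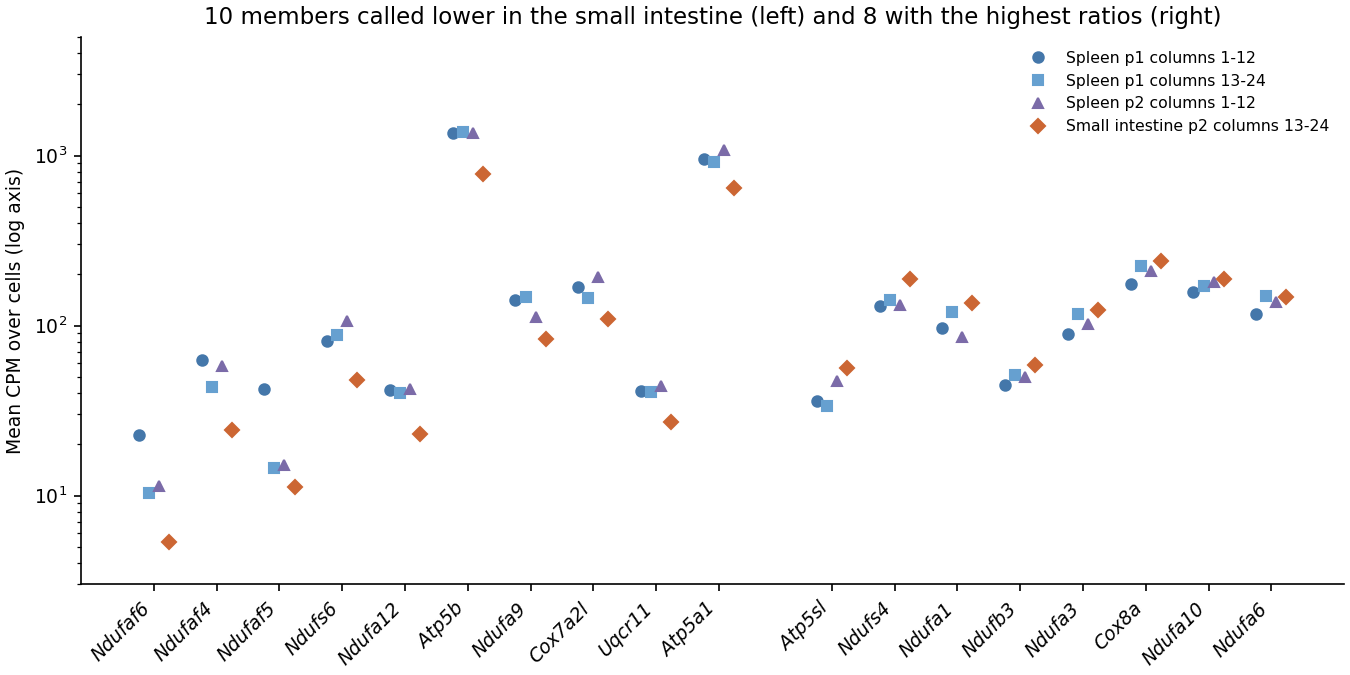
Mean CPM over kept cells (y axis, log scale) in the 4 well sets for the 10 members called lower in the small intestine (left) and the 8 members with the highest ratios among those read in at least 25% of cells (right). Atp5b was at 1351 to 1384 CPM in the spleen sets and 784 CPM in the small intestine, and Ndufs4 at 131.02 to 140.6 and 187.1 CPM.

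The 4 subunits of complex II, which is also the succinate dehydrogenase of the tricarboxylic acid cycle, did not move together. Sdha, the flavoprotein that oxidises succinate, averaged 448.9 ± 474.2, 464.5 ± 480.5 and 498.2 ± 533.6 CPM in the spleen sets and 330.9 ± 406.02 CPM in the small intestine, with a log2 ratio of -0.50. A read was found in 78.5% of spleen cells (74.1% to 82.4%) and in 66.4% of small intestine cells (57.9% to 74.3%), and the median cell was at 392.9 and 160 CPM. Sdhb, the iron-sulfur partner of Sdha in the same catalytic pair, averaged 351.8, 350.5 and 351.8 CPM in the spleen sets and 354.01 CPM in the small intestine. Its log2 ratio was 0.01, and -0.06 to 0.29 over the alternatives. Of the membrane anchors, Sdhc averaged 129.5, 110.6 and 100.6 CPM against 120 CPM, within the range of the spleen. Sdhd averaged 115.8, 95.4 and 204.4 CPM against 106.6 CPM, so its ratio depended on the spleen set, at -0.93 against p2 and 0.16 against p1 columns 13 to 24. That holds for mean CPM. On means of log2(CPM + 1), Sdha and Sdhd were among the 34 of 75 members called lower, and Sdhb and Sdhc were not.

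In complex III 7 of 8 subunits lay below all spleen sets, against 45.6% of all genes compared. The median log2 ratio of the 8 was -0.34. Uqcr11, a small subunit, averaged 41.1, 40.6 and 43.9 CPM in the spleen sets and 27.1 CPM in the small intestine (log2 ratio -0.60), and was the one called lower. That call is at the edge of the 1.5-fold limit, since leaving out a single cell could bring the ratio to between -0.67 and -0.58. Uqcrc1 and Uqcrq, a large scaffold subunit and a small subunit at the quinone side, each had a log2 ratio of -0.50. Uqcrfs1, the Rieske iron-sulfur protein, was uneven within the spleen, at 248.2, 216.4 and 353.6 CPM, and at 209.2 CPM in the small intestine. Uqcrh, the hinge protein for cytochrome c, was the exception: 370.9, 378.4 and 422.02 CPM in the spleen sets, 394.1 CPM in the small intestine, and a read in 100% of small intestine cells.

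In complex IV the 10 subunits compared had a median log2 ratio of -0.16, and none was called. Of the 10, 6 lay below all spleen sets and 1 above, against 45.6% and 23.5% of all genes compared. Cox4i1, the regulatory subunit of the enzyme and the member with the highest level per kilobase of transcript, averaged 605, 593 and 651 CPM in the spleen sets and 563.998 CPM in the small intestine. Its log2 ratio of -0.12 turned positive in 3 of 15 alternatives. Cox6b1 and Cox6a1, both nuclear-encoded supernumerary subunits, had log2 ratios of -0.26 and -0.24. Ndufa4, first assigned to complex I and now counted as a complex IV subunit, averaged 228.5, 250.8 and 222.7 CPM against 173.7 CPM (log2 ratio -0.43). Cox8a, a short membrane subunit, was the one above all spleen sets, at 176.6, 222.8 and 208.2 CPM against 240 CPM (log2 ratio 0.24). Cox7a2 lay within the spleen range, at 125.5, 169.8 and 153.9 CPM against 162.1 CPM. Cox7a2l, a protein that joins complexes III and IV in supercomplexes, averaged 169.5 ± 140, 145.9 ± 138.6 and 193.3 ± 150 CPM in the spleen sets and 108.6 ± 85.6 CPM in the small intestine, with a log2 ratio of -0.63, and was called lower. That call was lost with TMM scaling, with DESeq2 size factors, with totals that leave out the most abundant genes, with cells called S or G2M included, after thinning, on summed reads, without p2 and among cells with 3000 to 3500 genes.

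The isoforms of complex IV subunits known from heart, muscle, lung or testis were almost unread. Cox7b2, Cox8b and Cox8c had 0 reads in all kept cells, and 0 of 400 spleen cells allow a share of up to 0.75% of cells with a read and 0 cells of the small intestine up to 2.19%. Cox6a2, the muscle form of subunit 6A, had a read in 1 of 400 spleen cells and none in the small intestine, and Ndufa4l2, a hypoxia-inducible relative of Ndufa4, likewise in 1 spleen cell. Cox4i2, the lung form of subunit 4, was read in 2 spleen cells and 1 small intestine cell. Cox6b2, the testis form of subunit 6B, was read in 8 spleen cells and in none from the small intestine. Cox7a1, the muscle form of subunit 7A, was read in 6 spleen cells (1.5%) and 6 small intestine cells (4.38%), with 59 and 75 reads in all (95% exact Poisson intervals 44.9 to 76.1 and 59 to 94). The Poisson intervals treat each read as independent, though PCR copies cannot be told apart and few cells gave the reads. Its mean was at most 1.7 CPM in any set, and 1.15 CPM in the small intestine without the highest cell. The general forms Cox4i1, Cox6a1, Cox6b1, Cox7a2, Cox7b and Cox8a were read in 82.5% to 100% of cells in every set.

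A few general subunits were also nearly unread, and these share sequence with other genes. Each member's transcript (GENCODE M21, GRCm38) was cut into windows of 50 bases, and the share of windows found in transcripts of genes elsewhere in the genome was counted. Leaving out the 7 tissue-restricted isoforms of complex IV, 74 subunit genes remained. The 12 with more than 25% of windows shared had a median of 9.89 CPM per kilobase of transcript (range 0.0831 to 127.8), and the 62 others a median of 165.6 (range 16.7 to 810). All 7 subunits with a mean under 10 CPM were among the 12. Ndufs5, an accessory subunit of complex I that shares 41.2% of its windows, had 5 reads in 400 spleen cells and 3 in all kept small intestine cells. Atp5g2, another gene for subunit c, shares 100% of its windows and averaged 0.44, 0.49 and 0.63 CPM in the spleen sets and 0.40 CPM in the small intestine. Atp5g1, the remaining gene for subunit c, shares 66% and averaged 7.24, 7.61 and 8.96 CPM against 4.24 CPM. Atp5l, Cox7c, Ndufab1 and Ndufb4 shared 68.5%, 53%, 31.2% and 37% of windows and had a mean over the 4 sets of 3.4, 3.94, 4.18 and 7.79 CPM. A high share did not always go with a low level, since Atp5h shared 50.5% and averaged 79.9 CPM. Levels and ratios of the 12 genes are uncertain, because the counting could have lost or split their reads among copies. Whether it did was not tested. Among them are Ndufab1, the mitochondrial acyl carrier protein (log2 ratio -1.05), and Atp5g1 (log2 ratio -0.76), which were among the lowest ratios of members read in at least 25% of cells.

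**Figure D5:**
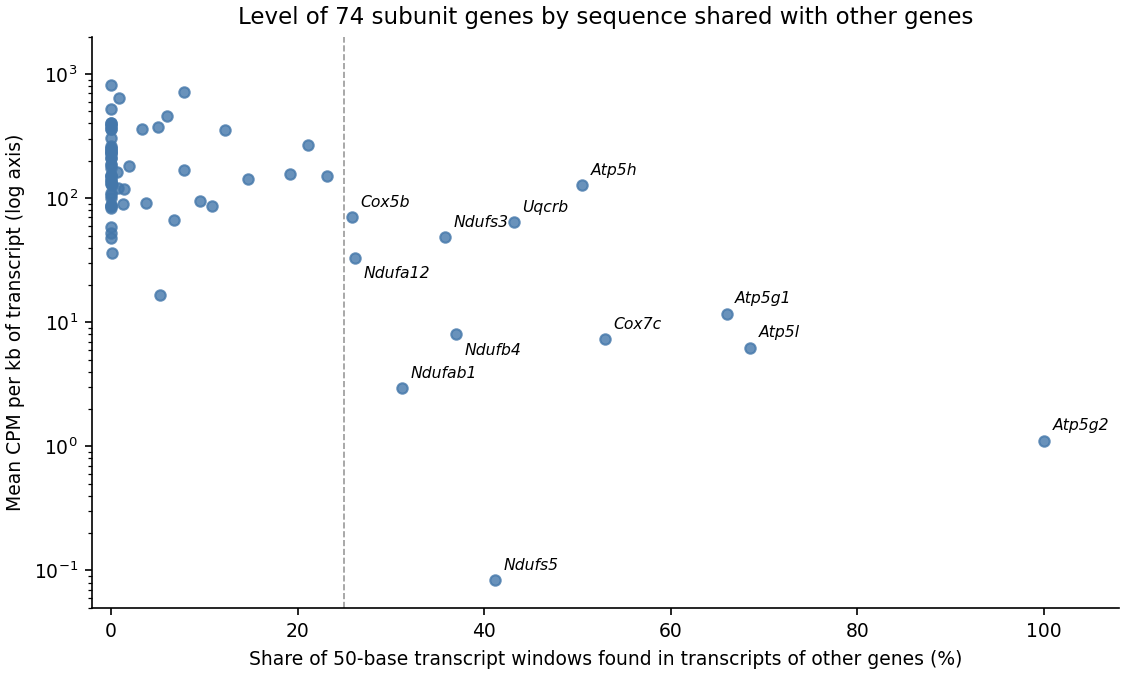
Mean CPM per kilobase of transcript over the 4 well sets (y axis, log scale) against the share of 50-base transcript windows found in other genes (x axis) for 74 subunit genes; the dashed line is at 25%. The 12 named genes to its right include all 7 subunits under 10 CPM, from Ndufs5 at 0.0831 to Atp5g1 at 11.8 CPM per kilobase.

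Within the spleen the members moved less than the typical gene did. Between p2 and p1, 3 of 75 members were at least 1.5-fold higher in p2 and above both p1 sets, against 12.5% of genes, and 0 of 75 were lower, against 12.2%. The 3 were Sdhd (log2 ratio of p2 over p1 0.95), Ndufb6, an accessory subunit of complex I (0.78), and Uqcrfs1 (0.61). Ndufb6 averaged 94.1, 107.6 and 174.5 CPM in the spleen sets and 110 CPM in the small intestine, so that its small intestine mean CPM was inside the spleen range. On means of log2(CPM + 1), Ndufb6 was called lower in the small intestine, below all 3 spleen sets. Within p1, 0 of 75 members were at least 1.5-fold higher in columns 13 to 24 than in columns 1 to 12, against 10.9% of genes, and 2 were lower, Ndufaf5 and Ndufaf6, against 9.77%. The interquartile range of the members' log2 ratios was 0.19 for p2 over p1 and 0.24 within p1, against 0.64 and 0.53 over all genes compared. Ndufv3, a flavoprotein-side subunit of complex I, and Ndufa7 also varied within the spleen, from 111.6 to 166.4 CPM and from 75.8 to 111.2 CPM, and their small intestine means of 146.2 and 93.6 CPM fell inside those ranges.

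Other gene lists are set beside the members by the same rule, under which 29.6% of all genes compared were called lower and 12.6% higher. Of 74 mitochondrial ribosomal protein genes compared, 41 were called lower and 0 higher, with a median log2 ratio of -0.66. Mrps6 was at 140 to 175.1 CPM in the spleen sets and 40.5 CPM in the small intestine. Of 20 genes of mitochondrial protein import, 9 were called lower and 0 higher (median -0.53), among them Tomm40, the channel of the outer membrane, at 70.8 to 96.1 CPM against 29 CPM. Of 18 genes of the tricarboxylic acid cycle and pyruvate dehydrogenase, 8 were called lower and 0 higher (median -0.53), with Idh2 at 14.6 to 31.5 CPM against 7.58 CPM. Of 29 assembly factors outside the naming rule, 10 were called lower and 1 higher (median -0.42), a share near that of all genes. Cox18, which inserts a complex IV subunit, was at 33 to 44 CPM against 11.4 CPM, and Surf1, a complex IV assembly factor, at 82.4 to 99.4 CPM against 138.02 CPM. Sdhaf1, which delivers iron-sulfur clusters to Sdhb, was at 65.8 to 102.4 CPM against 29.4 CPM.

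Of 13 regulators of mitochondrial gene expression 8 were called lower and 1 higher (median -0.74). Pprc1, a coactivator of the PGC-1 family, averaged 49.9, 56.3 and 29.1 CPM in the spleen sets and 7.12 CPM in the small intestine, and Polg2, the accessory subunit of the mitochondrial DNA polymerase, 9.36, 11.9 and 13.9 CPM against 37.6 CPM. Of 13 genes of electron carriers and coenzyme Q synthesis 2 were called lower and 1 higher (median -0.29), a share below the 29.6% of all genes. Coq5, a methyltransferase of that synthesis, was at 30.4 to 61.5 CPM against 8.49 CPM, and Coq10b, a coenzyme Q binding protein, at 27 to 46.8 CPM against 116.7 CPM. Of 4 uncoupling and inhibitor proteins 1 was called lower. Ucp2, an inner membrane carrier of the uncoupling protein family, was level at 2186 to 2230 CPM in the spleen sets and 2316 CPM in the small intestine, more than any member. Slc25a5, an ADP/ATP carrier, was at 210 to 275.8 CPM against 153.1 CPM, and Atpif1, the inhibitor of the ATP synthase, at 45.8 to 59 CPM against 62.5 CPM.

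Outside the mitochondrion, 11 of 16 glycolysis genes were called lower and 1 higher (median -0.74), against 29.6% and 12.6% of all genes, with Pfkl at 89.3 to 121.9 CPM in the spleen sets against 11.3 CPM and Hk2 at 26.5 to 35.3 CPM against 46.3 CPM. Of 85 rows of cytosolic ribosomal protein genes 57 reached the minimum level, and of these 31 were called lower and 0 higher (median -0.65). The share of 10 in 75 for the oxidative phosphorylation genes was below the share in each of these 2 lists, and no test of the difference was possible with 1 sample a tissue. The lists are given on mean CPM alone, while on means of log2(CPM + 1) 34 of 75 members were called lower. Windows shared with other genes were counted for the members only, so reads lost or split among copies could also affect these lists, which was not tested.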

How the data were processed

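The authors aligned SMART-seq2 reads with STAR in 2-pass mode (build mm10 per the submitters' processing notes and Mm8 per the study's methods) and deposited raw counts of reads by gene, each column being a cell. The methods describe RPKM values from uniquely aligned reads, but whether the deposited counts hold only such reads, and the counting tool and annotation, are not given in the sources used here. No mitochondrial genome rows were present, and 0 columns were left unused. Cells more than 3 median absolute deviations below their tissue's median log reads or genes were removed (50 cells), then cells that cyclone (scran 1.30.0) placed in S or G2M. No doublet caller was run on these plate-sorted cells; the kept cell with most genes had 7428. CPM was computed per cell without the reporter row, and ratios used a pseudocount of 1 CPM on mean CPM, which understates changes of low genes. The computation of ratios was checked on simulated counts with known changes. Every simulated cell was drawn from the pooled spleen cells, so the call rule was not checked against differences between well sets. TMM factors came from edgeR 4.0.16 and size factors from DESeq2 1.42.0, on reads summed per well set. Intervals are 95% and cover counting error only. Those on summed reads treat each read as independent and can be too narrow, because PCR copies cannot be told from separate molecules. Named members were the 8 highest and 8 lowest ratios among members with a read in 25% or more of the kept cells of a tissue, the complex II genes, paralog families, the 5 highest mean CPM and the 5 most uneven across spleen sets; others were named after their values were seen. One marker of other cells, and the summed level of its list, is not reported here. From other lists up to 3 genes farthest from the list median were named. The members, lists and rules were chosen with earlier results of these data known. Alternatives are listed under the closing section. Python 3.11.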

Additional observations from a re-analysis of the deposited data

Results flagged for a closer look

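Cells called S or G2M, which the comparisons leave out, had higher module scores than the cells called G1 of the same well set. The difference was 0.53 in p1 columns 1 to 12 (47 cells), 0.67 in p1 columns 13 to 24 (39 cells), 0.49 in spleen p2 (57 cells) and 1.08 in the small intestine (34 cells). Over all genes compared the same difference was 0.61, 0.64, 0.56 and 0.88, and the number of detected genes moved with it, with a median of 4193 to 4575.5 in cells called S or G2M. In these cells the small intestine score of 5.06 lay inside the spleen range of 4.84 to 5.08. Of the 75 members compared 17 had a higher mean in cells called S or G2M in all 4 well sets (22.7%), against 13.6% of all genes compared. These values were not tested.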

How the results depend on the processing

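All alternatives kept the sign of the score difference between tissues (-0.40) and of the members' median ratio (-0.24), but not their size. The score difference was -0.57 and -0.24 with pseudocounts of 0.1 and 10 CPM, -0.28 with TMM scaling, -0.27 with DESeq2 size factors, -0.34 with totals without the most abundant genes, -0.46 over members with at least 10 CPM, -0.33 with cells called S or G2M included and -0.45 with no filter on cells. Among cells with 3000 to 3500 genes, an alternative chosen after seeing the data, it was -0.15, the smallest gap of the 3 ranges of detected genes. The median ratio was -0.0395 with TMM scaling, -0.0223 with DESeq2 size factors, -0.12 with totals without the most abundant genes, -0.44 as a difference of mean log2 values and -0.12 among cells with 3000 to 3500 genes. Over all genes compared it was -0.0312 with TMM scaling, -0.0083 with DESeq2 size factors and -0.11 without the most abundant genes. As a difference of mean log2 values it was -0.19 over all genes compared and -0.53 over the 75 members compared. The count of members called lower, 10 as reported, was 6, 5 and 6 under the 3 scalings in that order (Atp5a1, Ndufa9, Cox7a2l and Uqcr11 lost their calls under all 3, and Atp5b with DESeq2 size factors), 6 with cells called S or G2M included, 18 against spleen p2 alone, 34 on mean log2 values, 6 among structural subunits alone, 6 among cells with 3000 to 3500 genes and 5 with at least 50 CPM, the last chosen after seeing the data, as was leaving out members with shared windows. The count called higher, 0 as reported, was 3, 3 and 2 under the scalings, 2 on mean log2 values, 2 among cells with 3000 to 3500 genes, and 1 with no filter on low genes (Cox7a1), after thinning, against p2 alone, without p2, and on summed reads. The other alternatives kept both counts within 1.5 times. The score difference of 0.04 between p2 and p1 was 0.0935 with no filter on cells and 0.0910 after thinning, which are both within the SD over cells. Leaving out any 1 cell in turn changed the call of 1 of the 10 members called lower (Uqcr11) and added calls for 8 others. The causes were not tested. No paired analysis was possible because the result comes from no test and the well numbers pair no cells. Depth limits the low genes: a member with no read in the small intestine could still be read in up to 2.19% of cells.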
